A study of Mus musculus with 5 samples.

Results

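Collagen genes encode the chains of the collagens, and 25 of them were measured in the skin of SKH-1 mice, a hairless strain, after superficial scratching and exposure to nanomaterials. They were chosen as the genes with a collagen chain symbol, Col17a1 left out, whose count exceeded 5 in 75% or more of the mice in any of the 19 groups, which held for 25 of the 43 such symbols among 36716 genes. Upper back skin of 153 mice aged 7 to 8 weeks was sequenced, with 8 mice in each treated group and 9 naive mice, which received nothing and carry no time point. These numbers follow the count table, while the design text of the series can be read as fewer mice per group. In the scratched groups the back was stroked with a metal brush and then received PBS (24 h or 7 d scratched group), nanosized titanium dioxide (nTiO2), zinc oxide (nZnO) or silver (nAg), or nothing (scratched without PBS). The intact groups received nTiO2, nZnO, nAg or PBS (24 h or 7 d control group) on unbroken skin, and skin was taken after 24 h or 7 d. Cage was not modelled, and the p-values measure the spread between mice.

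Collagens are triple-helical proteins, secreted mostly by fibroblasts in the dermis and by keratinocytes, endothelial cells and fibroblasts at basement membranes. Fibrillar collagens (types I, III, V, XI and XXVII here) assemble into the banded fibrils that give skin its tensile strength, type IV chains form the sheet of the basement membrane, and type VII forms the fibrils that anchor the epidermis to the dermis. Other types lie on fibril surfaces (XII, XIV and XVI), form beaded microfilaments (VI) or short-chain networks (VIII), or span the cell membrane (XXIII). In wound repair, early matrix is known to be rich in type III, which type I later replaces.

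The data are unique molecular identifier (UMI) counts from the 3′ ends of transcripts, given below as CPM (counts scaled to the total of each mouse), and as 1 molecule gives 1 count these levels do not depend on transcript length. Total counts per mouse lay between 201053 and 4028559 (median 1226021), with the lowest in 7 d control replicate 3, and RNA integrity numbers lay between 7.7 and 9.9. The libraries were sequenced in 5 pools. The 24 h groups were all in pools 1 to 3, and every 7 d scratched group was in pools 4 and 5, which at 7 d among the intact groups held only nZnO and nAg. The 7 d nZnO replicate 7 is given as scratched in its treatment entry and as intact in its names. It was kept as intact by its names, and the 7 d nZnO calls are also given without it. Skin samples hold several cell types, so fewer cells of a type and less RNA per cell cannot be told apart.

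To show members that lie together or differ in their results, short stretches of promoter are given, each 30 bases long on the strand of its gene, with the pentamer CCAAT or its complement ATTGG in capitals. They come from RefSeq (GRCm38.p6). Col4a1 and Col4a2 lie head to head on chromosome 8, with starts 21 bases apart at 11312826 (Col4a1, minus strand) and 11312805 (Col4a2, plus strand). Both genes cover the bases between these starts, and they are shown as the pair of genes for the main type IV chains. Col1a2, Col5a3 and Col7a1 are shown as a chain of type I, a chain of type V and the chain of type VII.
Col4a1: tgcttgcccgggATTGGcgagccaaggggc
Col4a2: ccgaggagctccCCAATttgttggcgctgc
Col1a2: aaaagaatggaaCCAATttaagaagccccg
Col5a3: gatctcagccagCCAATcagcgcgtggtgc
Col7a1: cATTGGtcactctaactagaaagcagtcaa
The stretches lie at chr8:11312954-11312983, chr8:11312761-11312790, chr6:4505497-4505526, chr9:20815172-20815201 and chr9:108953336-108953365 in the same order, and the first capital stands 145, 32, 109, 122 and 249 bases before the start. A promoter was found for 21 members, and 9 of these held either pentamer on either strand within 250 bases before a start, against 37.49% of 27025 genes and 33.85% of 32851 promoters. Col3a1, Col5a1, Col6a1, Col6a2 and Col6a3 held neither, which says only that these letters are not in that window.

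Col3a1, the chain of type III, was the most abundant collagen transcript with a median of 2661 CPM over the 153 mice and took 39.9% of all collagen counts. Col1a2 and Col1a1, the chains of type I, followed with medians of 1777 and 446 CPM, so that the count of Col1a2 was well above that of Col1a1, with which it forms 1 protein. The 8 fibrillar genes together took 81.1% of collagen counts, the 7 basement membrane genes (type IV, type VII and the proteoglycan types XV and XVIII) 4.68% and the 10 other genes 14.2%. Among the fibrillar genes, Col5a2, Col5a1 and Col5a3 (type V, which sets fibril diameter) had medians of 284, 68.9 and 60.6 CPM, and Col11a1 and Col27a1 13.2 and 7.21 CPM. The basement membrane genes were led by Col4a1 (107 CPM), Col4a2 (70.1 CPM) and Col18a1 (64.0 CPM), with Col7a1 at 22.5 CPM, and the others by Col14a1 (249.6 CPM), Col6a1 (157 CPM), Col6a2 (123 CPM), Col6a3 (121 CPM) and Col12a1 (111 CPM). The lowest were Col4a4, Col8a2 and Col6a5 with 5.82, 4.79 and 4.08 CPM. Of the 25 genes, Col6a5 passed the count minimum in 1 group, Col4a4 and Col8a2 in 4 each, Col4a5 in 13 and Col27a1 in 14, and the other 20 in all 19. At the edge of the rule, Col6a5 reached more than 5 counts in 75% of the mice of its best group, whereas Col6a6 (62.5%) and Col4a6 (50.0%) stayed outside it. The cartilage collagen Col2a1 gave 12 counts over all mice. Cartilage and bone markers summed to at most 15.6 CPM in any mouse.

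Summed over the class, fibrillar collagen transcripts were lower in scratched than in intact skin at 24 h and higher at 7 d, and the basement membrane class was the one that lay higher at 24 h. At 24 h the fibrillar sum had a median of 4762 CPM (2967 to 5580, n = 40) in scratched mice and 5385 CPM (3341 to 6706, n = 41) in intact mice, the naive mice included. At 7 d it was 6215 CPM (3889 to 10070, n = 40) in scratched mice and 5352 CPM (4047 to 9793, n = 41) in intact mice, the naive mice again included. The group median was lower in the scratched group of all 5 pairs at 24 h (ratios 0.846 to 0.994) and higher in all 5 at 7 d (ratios 1.01 to 1.29), while the ranges of single mice overlapped in every pair. Over the 19 groups the fibrillar median ran from 4697 CPM in the 24 h scratched group without PBS to 6637 CPM in the 7 d scratched group without PBS. Basement membrane sums had medians of 329 CPM (244 to 400.0) in scratched and 302 CPM (201 to 433) in intact mice at 24 h, with the scratched median higher in all 5 pairs. At 7 d they had medians of 289 CPM in scratched and 282 CPM in intact mice, higher after scratching in 3 of 5 pairs. Sums of the other collagen genes had medians of 891 CPM in scratched and 917 CPM in intact mice at 24 h, higher in 2 of 5 pairs, and 1041 CPM in scratched and 844 CPM in intact mice at 7 d, higher in 5 of 5. These sums are a description and were not tested. Among single mice, 7 d scratched nAg replicate 1 stood highest in the other class with 1960 CPM.

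**Figure D1:**
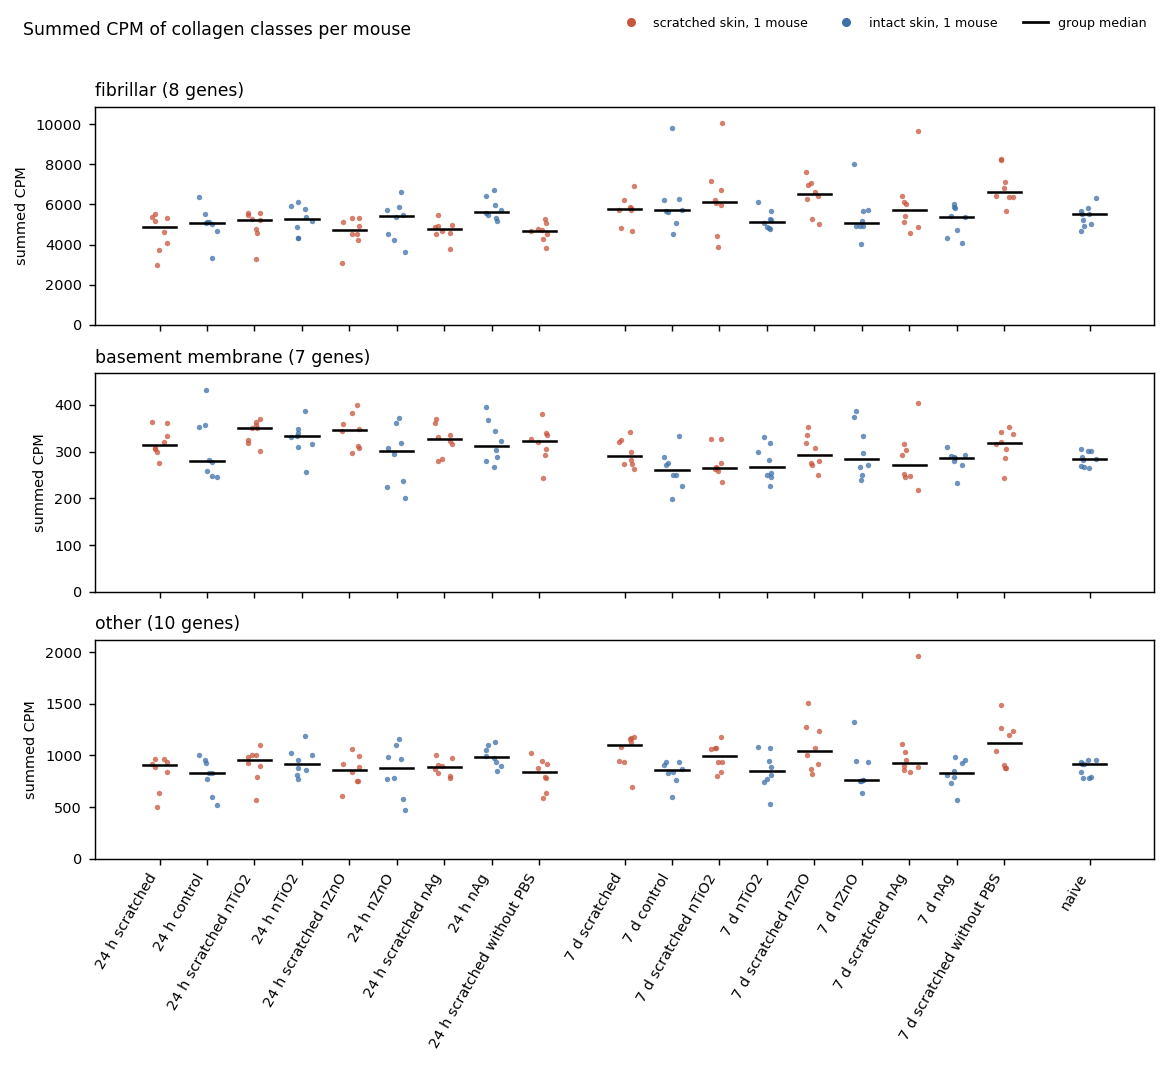
Summed CPM of the fibrillar, basement membrane and other collagen genes in each of the 153 mice (points) by group, with the group median as a bar and scratched groups left of their intact partners. At 24 h the scratched medians of the fibrillar class lie below their partners' (4762 against 5385 CPM over all mice), and at 7 d above them (6215 against 5352 CPM).

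To use all repeats of the same contrast, scratched and intact skin were compared over the 5 matched pairs of groups (PBS, nTiO2, nZnO, nAg, and scratched without PBS with naive) in 1 edgeR fit per time point. A call required an adjusted p (Benjamini–Hochberg, over all genes tested) below 0.05 together with a log2 fold change of 0.33 or more in either direction, a 1.26-fold difference. The naive mice were the intact partner at both times, so the fits share control mice and their values stand side by side. At 24 h, 24 collagen genes were tested and 6 were lower and 0 higher. Of the 6, Col4a4 and Col8a2 passed the count minimum only through intact groups and had to be lower, which leaves 4. Of all 12474 genes tested, 6.61% were called lower and 5.95% higher. Without the fold threshold 10 collagen genes were lower, Col4a4 and Col8a2 again among them, and 3 higher, against 16% and 15.7% of all genes. The median log2 fold change was -0.09 over the collagen genes, Col4a4 and Col8a2 included, while medians over all genes lay within 0.016 of 0.

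Among the fibrillar genes at 24 h, Col1a1 and Col11a1 fell. Col1a1 had 196 to 635 CPM (median 365, n = 40) in scratched mice, against 312 to 793 CPM (median 463, n = 41) in intact mice. The ranges overlapped, but the scratched median was the lower one in all 5 pairs, and 3 to 5 of the 8 scratched mice of each pair lay below every intact mouse. On the log2 scale Col1a1 stood at -0.34 ± 0.073 (SE), with an adjusted p of 1.27e-04 in edgeR. Col11a1, a minor chain of the fibril core, was 2.35 to 18.2 CPM (median 9.71) in scratched and 5.44 to 23.1 CPM (median 14.4) in intact mice, and fell by 0.46 on the log2 scale (adjusted p = 3.54e-04 from edgeR). Col1a2 and Col5a1 passed on the adjusted p but not on the fold, at -0.25 and -0.23. Col3a1 stood at -0.11 with an adjusted p of 0.142 and did not pass, nor did Col5a2 (0.02), Col5a3 (0.02) or Col27a1 (-0.02). Without the pair that uses the naive mice, or without 24 h scratched nTiO2 replicate 1, Col1a1 stood at -0.32, past the adjusted p but just under the fold threshold.

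Of the basement membrane genes at 24 h, Col18a1 and Col4a2 were higher on the adjusted p alone, and Col15a1, Col4a4 and Col4a5 fell. Col18a1, whose C-terminal fragment is endostatin, had 49.6 to 109.6 CPM (median 73.5) in scratched and 39.4 to 87.5 CPM (median 64.1) in intact mice, or 0.25 ± 0.057 (SE) on the log2 scale, with an adjusted p of 4.19e-04 in edgeR. Col4a2 was 46.8 to 127 CPM (median 80.9) in scratched and 37.4 to 109.0 CPM (median 65.9) in intact mice, or 0.25 on the log2 scale, with an adjusted p of 0.00154 in edgeR. Both were higher by group median in 5 of 5 pairs and passed on the adjusted p but not on the fold, and Col4a1, which shares the promoter region given above, stood at 0.13 (adjusted p = 0.0631). Col15a1, a proteoglycan collagen of vessel and muscle basement membranes, fell by 0.34 (adjusted p = 0.00805). Col4a5 and Col4a4, chains of the specialised type IV network, fell by 0.48 and 0.50 (adjusted p = 0.00206 and 0.0223 from edgeR). Col4a4 passed the count minimum at 24 h in 2 intact groups and in 0 scratched groups, as did the short-chain Col8a2 of the other class (-0.61) in 3 intact groups and 0 scratched groups, so that these calls carry no weight of their own. Col15a1 was not called without the nTiO2 pair (-0.32) or the nAg pair (-0.31), nor Col4a4 without the nZnO pair or the naive pair. Col7a1 had a log2 fold change of 0.01 at 24 h and did not pass.

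In the other class at 24 h, the fibril-surface collagen Col12a1 was 68.4 to 219 CPM (median 129.5) in scratched and 45.6 to 173 CPM (median 115) in intact mice. Its log2 fold change of 0.32 passed on the adjusted p (0.00181 from edgeR) and lay just under the fold threshold, which it crossed without the nTiO2 pair (0.35), the nAg pair (0.33) or the naive pair (0.36). The beaded-filament genes Col6a1 and Col6a2 had log2 fold changes of -0.21 and -0.20 that also passed on the adjusted p alone, whereas Col6a3, which encodes the third chain of the same protein, stood at -0.01. Col14a1, Col16a1, Col8a1 and Col23a1 did not pass, at -0.05, -0.11, -0.02 and -0.07.

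Markers of several cell types moved at 24 h as well, in the fit where 6.61% of all genes were called lower and 5.95% higher. Of 8 fibroblast markers (Col1a1 and the matrix genes Dpt, Lum and Dcn among them), 5 fell and 1 rose in the same fit, with the receptor Pdgfra at 0.37 and Pi16, a marker of adventitial fibroblasts, at -1.0. Without Col1a1 they summed to 1512 to 3899 CPM (median 2538) in scratched and 1946 to 4142 CPM (median 3509) in intact mice. Of 9 leukocyte markers 5 rose and 1 fell, with sums of 3972 to 9720 CPM (median 5593) in scratched and 2603 to 6385 CPM (median 4905) in intact mice. Of 8 adipocyte markers 3 fell (Retn, Adipoq and Cfd) and 0 rose, with sums of 1948 to 6036 CPM (median 3147) in scratched and 1937 to 6067 CPM (median 4022) in intact mice. The part of these shifts in the collagen results was not tested.

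**Figure D2:**
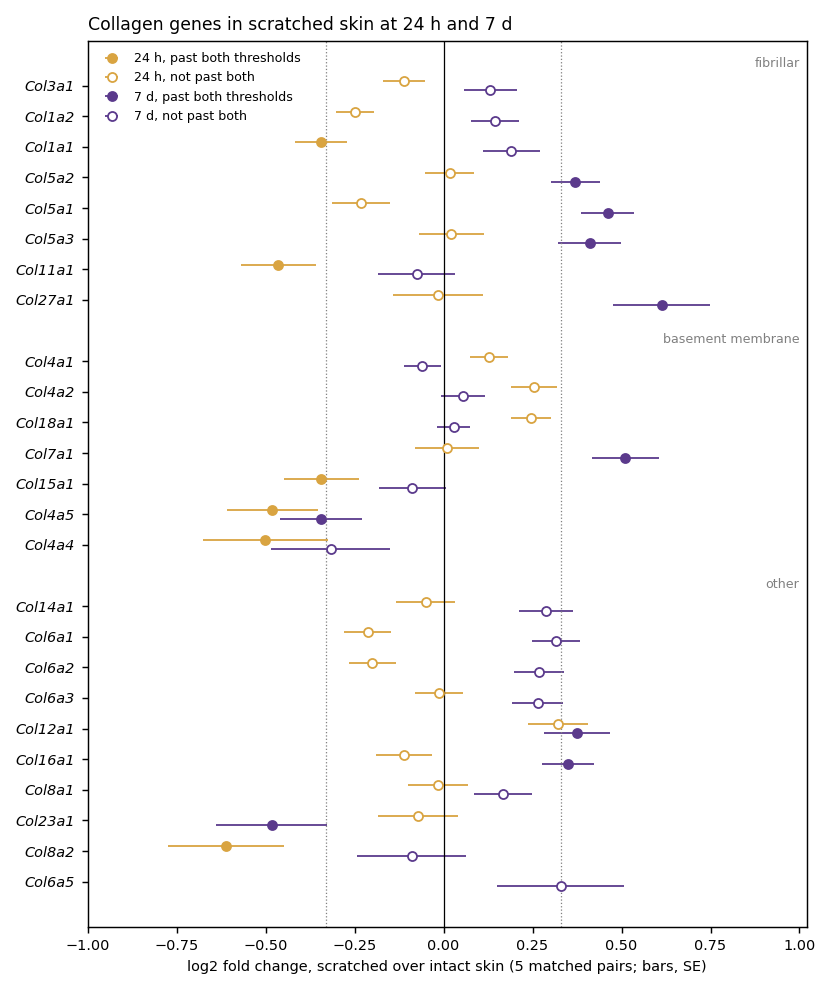
Log2 fold change of scratched over intact skin (bars, standard error) for each collagen gene in the fits over 5 matched pairs, 24 h and 7 d, with filled points past both thresholds and dotted lines at 0.33 and -0.33. Col1a1 stands at -0.34 at 24 h and 0.19 at 7 d, and Col5a1 at -0.23 and 0.46.

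At 7 d more collagen genes were higher than lower in scratched skin. Of 25 collagen genes tested, 7 were higher and 2 lower, against 3.44% and 1.31% of all 12477 genes. Without the fold threshold 11 were higher and 2 lower, against 8.17% and 7.29%, and the median log2 fold change over the collagen genes was 0.19. By class, the median was 0.28 for the fibrillar genes, -0.06 for the basement membrane genes and 0.28 for the others. Col6a5 and Col8a2, which were not called, passed the count minimum at 7 d only through the 7 d scratched nAg group and are included in these medians. In 3 of the 5 pairs at 7 d, scratched mice of pools 4 and 5 were set almost entirely against intact mice of other pools, where pool and scratching cannot be told apart, so the values of the called genes are also given for the nZnO and nAg pairs alone, whose mice were all in pools 4 and 5, with pool in the model.

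The fibrillar genes that rose at 7 d were those of type V and type XXVII, while types I and III did not pass. Col5a1 had 51.0 to 170 CPM (median 90.5, n = 40) in scratched mice, against 32.2 to 95.3 CPM (median 65.6, n = 41) in intact mice. On the log2 scale Col5a1 stood at 0.46 ± 0.074 (SE), with an adjusted p of 1.13e-05 in edgeR, and at 0.47 (adjusted p = 0.00989) in the nZnO and nAg pairs with pool. Col5a2 was 224 to 738 CPM (median 330) in scratched and 150.4 to 358 CPM (median 263) in intact mice, at 0.37 (adjusted p = 1.14e-04 from edgeR) and 0.49 (adjusted p = 0.0092) within those pools, but at 0.32 without the nAg pair. Its scratched median was higher in 5 of 5 pairs, with between 3 and 6 of the 8 scratched mice of a pair above every intact mouse. Col5a3, the third chain of type V, stood at 0.41 (adjusted p = 7.44e-04) and 0.44 (adjusted p = 0.0186) within those pools. Col27a1 stood at 0.61 (adjusted p = 0.00104 from edgeR) but did not pass within those pools (0.53, adjusted p = 0.185). A gene of low count, it passed the count minimum at 7 d in 5 scratched groups and 2 intact ones, the naive group included. Col1a1 was 347 to 1137 CPM (median 526) in scratched and 312 to 793 CPM (median 435) in intact mice, a log2 fold change of 0.19 with an adjusted p of 0.0898. Col1a2 (0.14, adjusted p = 0.136 from edgeR) and Col3a1 (0.13, adjusted p = 0.232) did not pass either.

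Col7a1, the anchoring fibril collagen, was the basement membrane gene that rose at 7 d. It had 8.14 to 88.9 CPM (median 30.4) in scratched and 3.58 to 33.9 CPM (median 21.6) in intact mice, with a higher scratched median in 5 of 5 pairs. The nZnO pair did not overlap, at 26.6 to 38.9 CPM (median 32.5) in the 7 d scratched nZnO group and 13.4 to 23.0 CPM (median 19.8) in the 7 d nZnO group. Over the 5 pairs Col7a1 stood at 0.51 ± 0.094 (SE) on the log2 scale, with an adjusted p of 1.14e-04 in edgeR, and at 0.62 (adjusted p = 0.0116) in the nZnO and nAg pairs with pool. Col4a5 fell by 0.34 (adjusted p = 0.0291) and stood at -0.74 (adjusted p = 0.00883) within those pools, but at -0.17 (adjusted p = 0.391) without the nAg pair and -0.31 (adjusted p = 0.124) without the nZnO pair. The main type IV chains Col4a1 (-0.06) and Col4a2 (0.05), Col15a1 (-0.09), Col18a1 (0.03) and Col4a4 (-0.32) did not pass.

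**Figure D3:**
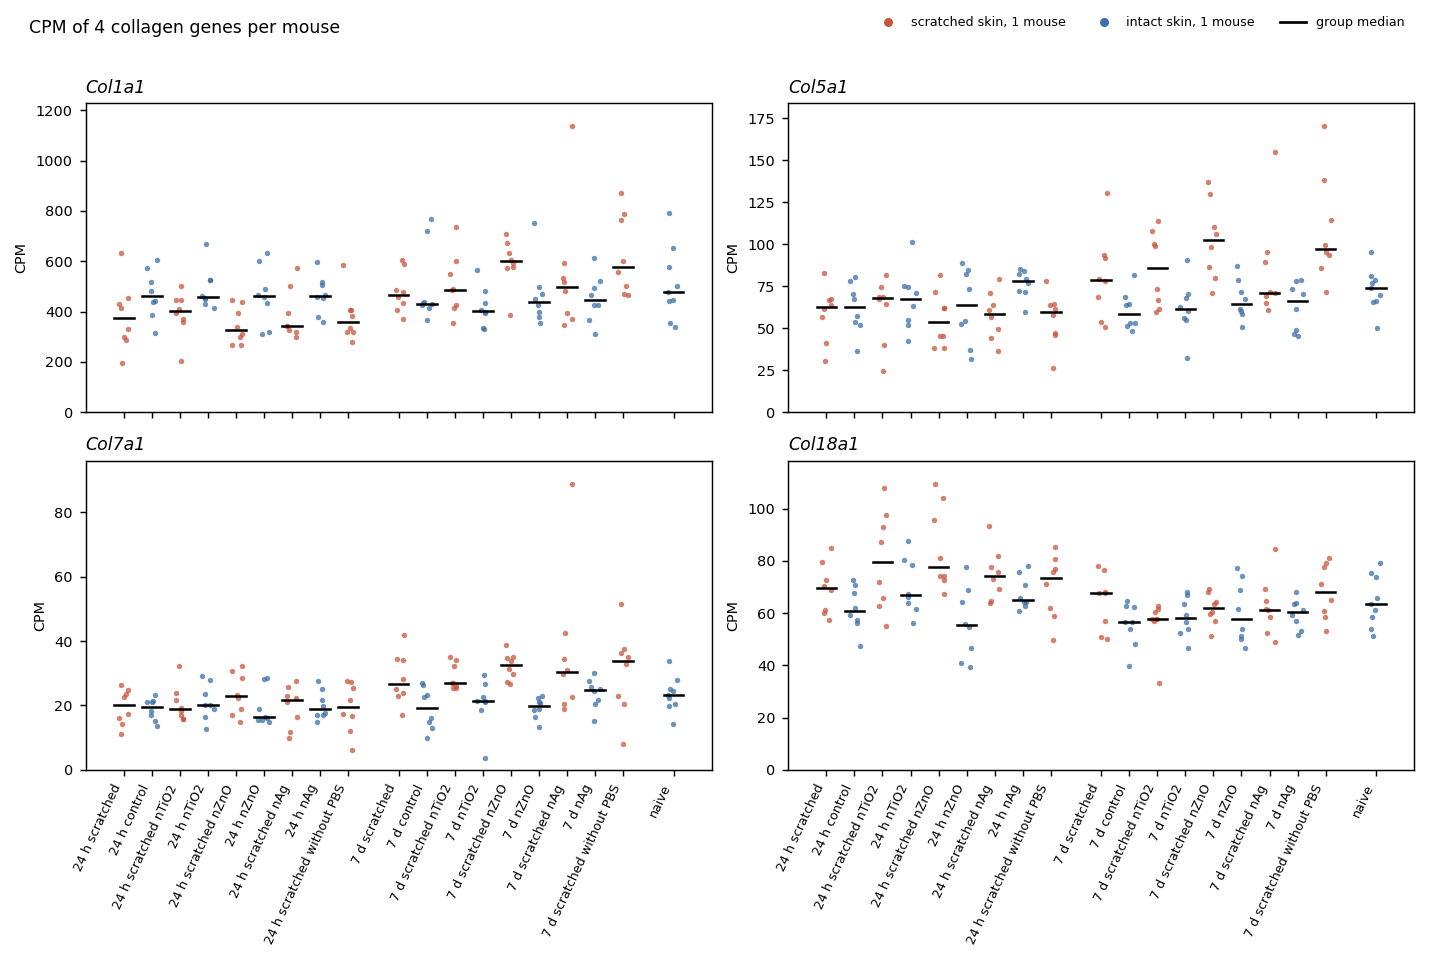
CPM of Col1a1, Col5a1, Col7a1 and Col18a1 in each mouse (points) by group, with group medians as bars and scratched groups left of their intact partners. The medians of Col1a1 and Col18a1 over all pairs at 24 h are given here (365 against 463 CPM and 73.5 against 64.1 CPM in scratched against intact mice), as are those of Col5a1 and Col7a1 at 7 d (90.5 against 65.6 CPM and 30.4 against 21.6 CPM).

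Among the other collagens, the fibril-surface genes Col16a1 and Col12a1 rose at 7 d. Col16a1 was 46.7 to 115 CPM (median 71.2) in scratched and 29.9 to 79.6 CPM (median 57.4) in intact mice, at 0.35 (adjusted p = 5.49e-04 from edgeR). It lost the call in the nZnO and nAg pairs with pool (0.30, adjusted p = 0.0986). Col12a1 was 75.9 to 448 CPM (median 111) in scratched and 54.7 to 137 CPM (median 94.5) in intact mice, at 0.37 (adjusted p = 0.00274 from edgeR) and 0.60 (adjusted p = 0.0268) within those pools, but at 0.26 without the nAg pair. Without 7 d scratched nAg replicate 1, the mouse with 448 CPM, Col12a1 stood at 0.28, Col16a1 at 0.326, Col5a2 at 0.32 and Col4a5 at -0.33, each still past the adjusted p but under the fold threshold, while Col5a1 (0.43) and Col7a1 (0.44) kept both. A total of 5 collagen genes were called at 7 d without that mouse. The fit of the nZnO and nAg pairs with pool includes that mouse and was not run without it. Col16a1 also stood under the fold threshold without the PBS pair (0.30) or the naive pair (0.31). The microfilament genes Col6a1, Col6a2 and Col6a3 passed on the adjusted p alone, at 0.32, 0.27 and 0.26, and past both thresholds within those pools, at 0.40, 0.39 and 0.41. Col14a1 (0.29) passed on the adjusted p alone as well. The transmembrane collagen Col23a1 was 0 to 44.0 CPM (median 25.6) in scratched and 4.97 to 64.5 CPM (median 31.8) in intact mice, and fell by 0.48 (adjusted p = 0.0247), which did not pass within those pools (-0.39, adjusted p = 0.264) or without the nTiO2, nZnO, nAg or naive pair (-0.33 to -0.53). Of the fibroblast markers 1 rose and 0 fell at 7 d (Pdgfrb, 0.37), while 1 was higher and 2 lower on the adjusted p alone. Without Col1a1 they had sums of 2078 to 3838 CPM (median 3076) in scratched and 1946 to 4444 CPM (median 3070) in intact mice. Of 9 leukocyte markers 1 rose and 0 fell, while 3 were higher and 0 lower on the adjusted p alone. Of 4 erythroid markers tested 2 fell (Hbb-bs and Hbb-bt) and 0 rose, with sums of 657 to 2854 CPM (median 1342) in scratched and 807 to 2974 CPM (median 1520) in intact mice. Skeletal muscle markers, by contrast, had 0 of 10 called and summed to a median of 1543 CPM in scratched and 3931 CPM in intact mice, and the part of these markers in the collagen results was not tested.

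In single pairs of groups few collagen genes passed. Between the 24 h scratched and the 24 h control group 0 of 22 were called by edgeR, against 3.39% of all genes. DESeq2 called 0, against 4.60% of all genes. An unadjusted edgeR p under 0.05 was reached by 1 collagen gene (4.5%, against 17.6% of all genes). That gene was Col12a1, with a median of 145 CPM (78.3 to 173) in the scratched and 98.8 CPM (45.8 to 125) in the control group and a log2 fold change of 0.50 (adjusted p = 0.135). Between the 7 d scratched and the 7 d control group 0 of 23 were called by edgeR, against 0 of all 11800 genes it tested. For the collagen genes DESeq2 also called 0. By edgeR, 5 collagen genes had an unadjusted p under 0.05 (21.74%, against 11.03% of all genes). The smallest p was that of Col16a1, with a median of 75.2 CPM (50.8 to 115) in the scratched and 46.9 CPM (32.9 to 61.8) in the control group (0.54, adjusted p = 0.254 from edgeR). Skin scratched without PBS gave 0 of 22 against naive skin at 24 h (2.93% of all genes) and 0 of 22 at 7 d (1.23%). The unadjusted edgeR p was below 0.05 for 8 and 11 collagen genes there (36.4% and 50.0%, against 17.8% and 14.6% of all genes). DESeq2 called 1 at 24 h (Col1a2, against 3.76% of all genes) and 3 at 7 d (Col3a1, Col5a1 and Col5a2, against 1.73%).

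Under the nanomaterials, 4 collagen calls were made between scratched and intact skin. Col18a1 rose in the 24 h scratched nZnO group, with 67.5 to 109.6 CPM (median 77.7) against 39.4 to 77.5 CPM (median 55.4) in the 24 h nZnO group (0.62, adjusted p = 0.0122 from edgeR; 3.06% of all genes were higher). In the 7 d scratched nZnO group, Col5a1 rose by 0.57 (adjusted p = 0.0352) and Col7a1 by 0.70 (adjusted p = 0.00963), where 0.561% of all genes were higher. For Col5a1 this was a median of 102.5 CPM (70.9 to 137) against 64.3 CPM (51.0 to 87.3) in the 7 d nZnO group. Without the mouse of conflicting labels the log2 fold changes of Col5a1 and Col7a1 were 0.57 and 0.75, and both passed. Col4a5 fell in the 7 d scratched nAg group, with 2.50 to 6.20 CPM (median 3.98) against 5.58 to 13.4 CPM (median 9.05) in the 7 d nAg group (-1.08, adjusted p = 0.0402; 0.360% of all genes were lower). It passed the count minimum there only through the 7 d nAg group, so that this call carries no weight of its own either. The nTiO2 pairs gave 0 of 24 at 24 h (2.15% of all genes) and 0 of 22 at 7 d (0.135%), and the nAg pair at 24 h 0 of 23 (1.5%). In these, 3, 4 and 7 collagen genes had an unadjusted p under 0.05 by edgeR. They were 12.5%, 18.2% and 30.4% of the collagen genes, against 17.2%, 12.7% and 14.9% of all genes. Over all 6 comparisons DESeq2 made 8 collagen calls, 4 upward and 4 downward, and called 2.81% of all gene tests. Of 21 collagen genes tested in all 5 comparisons at 24 h, Col4a1, Col4a2, Col12a1 and Col18a1 had a positive log2 fold change in each and Col1a1, Col1a2, Col5a1, Col6a1, Col6a2, Col11a1 and Col15a1 a negative one. At 7 d 11 of 22 were positive in each comparison and 0 negative in each. Among the 11, Col27a1 passed the count minimum in the PBS, nTiO2 and nZnO pairs only through the scratched group. Its sign in those pairs therefore carries no weight of its own.

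**Figure D4:**
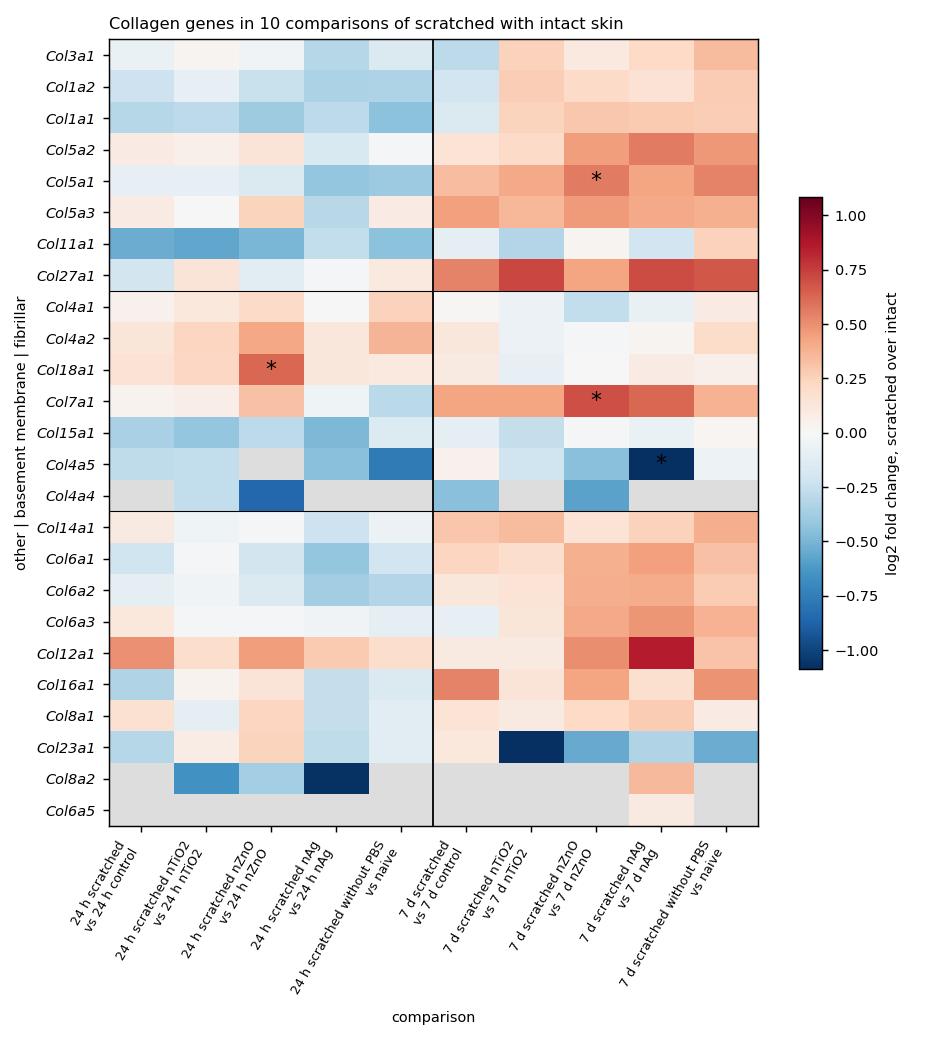
Log2 fold change of each collagen gene (rows, by class) in the 10 comparisons of a scratched group with its intact partner (columns, 24 h left and 7 d right), with asterisks on the 4 calls and grey for genes not tested. The type I rows are negative in all 5 comparisons at 24 h, and Col5a1 and Col7a1 are positive in all 5 at 7 d.

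Whether the effect of scratching itself differed between 7 d and 24 h was tested as an interaction. Over the control and scratched groups alone 0 of 23 collagen genes passed by edgeR, against 0.394% of all genes, and 0 were called by DESeq2. An unadjusted edgeR p under 0.05 was reached by 2 collagen genes (8.70%, against 13.7% of all genes). Over 16 groups (the PBS, nTiO2, nZnO and nAg pairs at both times), a fit chosen after the data were seen, 9 collagen genes had a more positive effect at 7 d, against 2.97% of all genes. Col5a1 differed by 0.63 (SE 0.13, adjusted p = 3.29e-04 in edgeR), Col6a1 by 0.53 and Col1a1 by 0.49, followed by Col6a2 (0.44), Col16a1 (0.41), Col1a2 (0.33), Col7a1 (0.45), Col27a1 (0.65) and Col5a3 (0.41). With pool in that fit 6 were called upward, namely Col1a1, Col1a2, Col5a1, Col5a2, Col6a1 and Col6a2, against 1.82% of all genes. Col18a1 went the other way, at -0.26 (adjusted p = 0.0329), and did not pass on the fold.

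Compared directly with the same treatment at 24 h, collagen genes rose in the 7 d scratched groups in 3 of 5 comparisons. All 7 d scratched mice were in other pools than the 24 h mice, so time and pool cannot be told apart here. Without PBS, Col5a1 stood at 97.4 CPM (71.9 to 170) at 7 d and 59.8 CPM (26.5 to 78.3) at 24 h (0.94, adjusted p = 0.0108 from edgeR). Col1a1 (0.72), Col16a1 (0.65), Col1a2 (0.62), Col6a1 (0.52) and Col3a1 (0.50) rose too, where 0.671% of all genes were higher. With PBS, Col16a1 (0.71) and Col6a1 (0.57) rose, where 1.99% of all genes were higher. Under nZnO, Col5a1 (0.84), Col6a1 (0.79), Col1a1 (0.74), Col6a2 (0.67) and Col1a2 (0.53) rose, where 2.72% of all genes were higher, and Col18a1 (-0.50) and Col4a1 (-0.43) fell, where 2.88% were lower. The scratched nTiO2 and nAg groups gave 0 of 22 and 0 of 23 by edgeR (1.12% and 0.591% of all genes called). In them, 10 and 12 collagen genes had an unadjusted p under 0.05 (45.45% and 52.17%, against 16.15% and 13.89% of all genes). On intact skin, Col12a1 (-0.54) and Col6a3 (-0.39) fell between 24 h and 7 d under nAg, whose mice were in different pools at the 2 times, where 1.45% of all genes were lower. The control, nTiO2 and nZnO groups gave 0 called by edgeR (0, 0.773% and 0.207% of all genes), with 2, 4 and 0 collagen genes at an unadjusted p under 0.05. These were 9.09%, 16.67% and 0% of the collagen genes, against 5.78%, 15.96% and 14.22% of all genes. Over the 9 comparisons edgeR made 17 collagen calls and DESeq2 23, against 1.95% and 3.08% of all gene tests.

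The nanomaterials gave no collagen call against PBS. On intact skin 0 of 136 tests passed by edgeR, with a lowest adjusted p of 0.136 and 0 calls by DESeq2. An unadjusted edgeR p under 0.05 was reached in 18 (13.2%, against 8.63% of all gene tests). Of these 18, 9 belonged to the 24 h nAg against the 24 h control group, where they were 39.1% of the collagen genes, against 7.21% of all genes. There 18 of 23 collagen genes stood above 0 on the log2 scale, their median was 0.21 (-0.01 over all genes) and the lowest adjusted p was 0.541. Col8a2 (0.57), among the 9 and the 18, passed the count minimum there only through the 24 h nAg group. It is included in these values and carries no weight of its own. Of all genes, 0.0442% were called for nZnO and 0.0859% for nAg at 7 d, and 0 in the other 4 comparisons. On scratched skin 0 of 137 tests passed by edgeR, with a lowest adjusted p of 0.700 and 0 calls by DESeq2, and edgeR called 0 of all genes in the 6 comparisons. An unadjusted edgeR p under 0.05 was reached in 6 (4.38%, against 4.69% of all gene tests). The 95% intervals (normal, from the standard errors) of Col1a1 reached from -0.61 to 0.25 over the 6 intact comparisons and from -0.48 to 0.60 over the 6 scratched ones, and the ones of Col5a1 from -0.35 to 0.55 and from -0.42 to 0.67. The intervals of Col3a1 reached from -0.76 to 0.49 and from -0.21 to 0.58, so that the data leave differences of up to these sizes possible. PBS on intact skin against naive skin gave 0 of 22 at 24 h and 0 of 22 at 7 d by edgeR, and 0 by DESeq2. Of all genes, 0.683% and 0.231% were called by edgeR. An unadjusted edgeR p under 0.05 was reached by 1 and 0 collagen genes (4.5% and 0%, against 7.46% and 7.8% of all genes).

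Genes that make, assemble, bind and degrade collagen were described from lists, in the fits over 5 pairs. Of all genes in these fits, 5.95% were called higher and 6.61% lower at 24 h, and 3.44% and 1.31% at 7 d. Of 22 tested synthesis genes (hydroxylases, chaperones and export factors) 0 were called at 24 h, where 4 were higher and 1 lower on the adjusted p alone, and 5 were higher and 0 lower at 7 d. The 7 d calls were the prolyl hydroxylases P3h1 (0.48), P3h3 (0.36), P4ha2 (0.38) and P4ha3 (0.56) and the chaperone Fkbp10 (0.46), whereas P4hb, a shared subunit of prolyl 4-hydroxylase, stood at 0.23 at 24 h and 0.05 at 7 d. Of 22 crosslinking and fibril assembly genes 1 rose and 8 fell at 24 h, and 3 rose and 0 fell at 7 d. Those with the smallest p at 24 h were the proteinase enhancer Pcolce2 (-0.64) and the fibril-binding proteins Dcn (-0.43), Dpt (-0.41) and Aspn (-0.39), of which Dcn and Dpt are also among the fibroblast markers, and the call upward was the lysyl oxidase Loxl3 (0.60). Those at 7 d were Thbs2 (0.49), Loxl2 (0.38) and Emilin1 (0.39). Of 9 receptor genes the inhibitory leukocyte receptor Lair1 rose at both times (0.41 at 24 h and 0.55 at 7 d), as did the integrin chain Itga11 at 7 d (0.54). Of 15 degradation genes at 24 h 3 rose and 2 fell, with the neutrophil collagenase Mmp8 at 1.82, the inhibitors Timp1 at 0.46 and Timp3 at -0.39, Prep at 0.38 and Mmp16 at -0.59. Of 14 at 7 d 2 rose, the collagenase Mmp13 (0.73) and the gelatinase Mmp2 (0.37). Between the 24 h scratched and the 24 h control group alone, Loxl3 (1.096), Mmp8 (2.37), Timp1 (0.66) and Lair1 (0.81) rose and Pcolce2 (-0.76) and Timp3 (-0.45) fell, where 3.39% of all genes were called. At 7 d 0 of these genes were called by edgeR, as were 0 of all 11800 genes.

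Over the 153 mice, with group means removed, the collagen genes that varied most like Col1a1 were Col1a2 (r = 0.696, rho = 0.708), Col6a3 (r = 0.669, rho = 0.638), Col5a1 (r = 0.608, rho = 0.545) and Col15a1 (r = 0.591, rho = 0.543) on the log2(CPM + 1) scale. Each had a two-sided permutation p of 1e-05 for r and for rho, the smallest that 100000 permutations of mice within groups can give, and adjusted over the 24 genes 3e-05 for r and 2.4e-05 for rho. Without the 2 mice farthest from the median of Col1a1, r was 0.657, 0.628, 0.558 and 0.605, and for Col1a2 it lay between 0.583 and 0.811 within the 5 pools. Col3a1, the most abundant of them, stood at r = 0.416 and rho = 0.42. Col18a1 (r = 0.102, adjusted permutation p = 0.29), Col7a1 (r = 0.0925, adjusted permutation p = 0.334) and Col4a2 (r = -0.0443, adjusted permutation p = 0.614) did not pass, and Col23a1 was negative (r = -0.237, rho = -0.254, adjusted permutation p = 0.00456 and 0.00497). The genes share libraries and depth, so these relations describe how the members moved together within these mice.

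**Figure D5:**
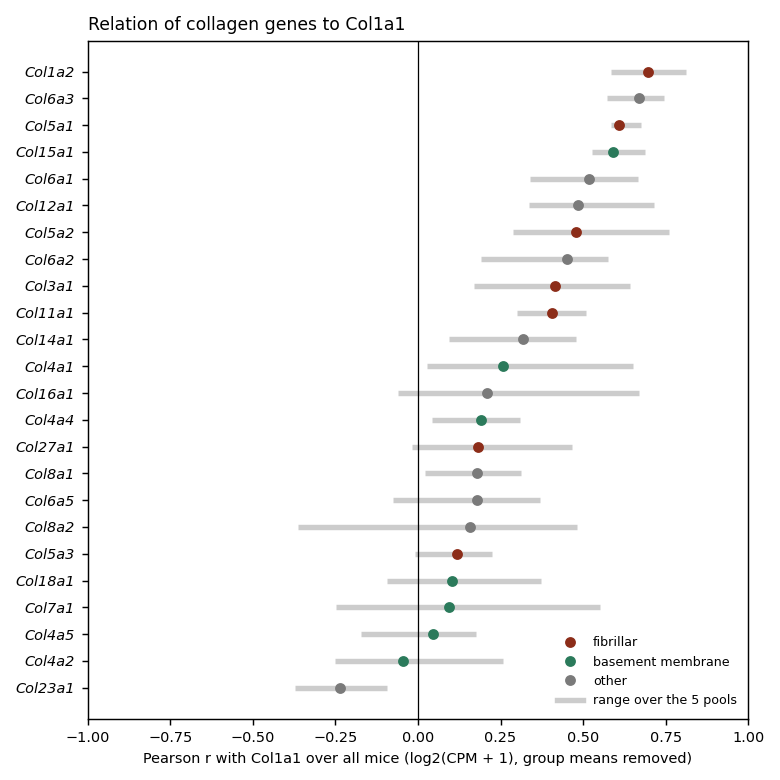
Pearson r with Col1a1 for the 24 other collagen genes over 153 mice with group means removed (points, by class), with the range of r within the 5 sequencing pools as grey lines. Col1a2 leads at 0.696, while Col18a1, Col7a1 and Col4a2 lie near 0 and Col23a1 at -0.237.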

How the data were processed

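Upper back skin of 153 SKH-1 mice was profiled with a 3′ RNA-seq protocol with UMIs. According to the methods, the authors removed short reads with Trimmomatic, aligned with STAR to GRCm39 (Gencode M28) and counted uniquely aligned reads per gene with the Drop-seq tools, merging UMIs that differed by a single base. The deposited count table holds raw UMI counts of 36716 genes with no normalization. The deposited sample tables give the RNA integrity number, a score, and the sequencing pool. GEO's samples are the 5 pools, so the group of each mouse came from the header of the count table, and no 2 mice of a group had identical counts (0 of 540 pairs).

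A gene entered a comparison when its count exceeded 5 in 75% or more of the mice in 1 of the groups compared. Tests used the edgeR quasi-likelihood F-test (edgeR 4.0.16, R 4.3.3) with TMM normalization and Benjamini–Hochberg adjustment over all genes tested, and a call needed an adjusted p below 0.05 with a log2 fold change of 0.33 or more in either direction. In the fits over 5 pairs each pair was a stratum. Two-sided tests were used throughout. Levels are CPM of the mouse's total count, and class sums were described and not tested. Alternatives were DESeq2 1.42.0, limma-voom (limma 3.58.1), RLE size factors, no filter, no fold threshold, the pool as covariate, and leaving out pairs or mice. The edgeR fits of 2 groups and over 5 pairs were run on simulated counts and scored on the adjusted p without the fold threshold. No pool effect was simulated, and the interaction fits were not run on such counts.

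The members, gene lists and tests were chosen with earlier results of these data known. Named were the collagen genes called in any comparison, 15 further collagen genes whether called or not, and the 4 genes of each pathway list with the smallest p in the comparisons of scratched with control skin and in the fits over 5 pairs. Further pathway genes, markers and collagens not called were named after their values were seen.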

Additional observations from a re-analysis of the deposited data

Results flagged for a closer look

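In 6 of 57 sums over a class and group, a single mouse stood far from the rest of its group by Dixon's test, where chance gives about 1 in 20. For the fibrillar class, 7 d scratched nAg replicate 1 had 9668 CPM (next mouse 6407 CPM), 24 h scratched nTiO2 replicate 1 had 3264 CPM (next 4556 CPM), 7 d nZnO replicate 4 had 8022 CPM (next 5701 CPM) and 7 d control replicate 3 had 9793 CPM (next 6281 CPM). The last of these had the lowest total count of all mice, 201053. For the other collagen genes, 7 d scratched nAg replicate 1 had 1960 CPM (next 1112 CPM), with 448 CPM of Col12a1, 88.9 CPM of Col7a1 and 155 CPM of Col5a1, and 7 d nZnO replicate 4 had 1327 CPM (next 944 CPM).

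The effect of scratching differed between 7 d and 24 h for 9 collagen genes in the edgeR interaction over 16 groups, a fit chosen after the data were seen, in which 2.97% of all genes were higher. The fit over the control and scratched groups alone called 0 of 23. With pool in the fit over 16 groups 6 collagen genes were called, and Col16a1, Col7a1, Col27a1 and Col5a3 were not among them. On the log2 scale the effect at 7 d exceeded that at 24 h by 0.63 for Col5a1 (adjusted p = 3.29e-04), 0.53 for Col6a1 (adjusted p = 6.04e-04), 0.49 for Col1a1 (adjusted p = 0.00395), 0.44 for Col6a2 (adjusted p = 0.00527) and 0.41 for Col16a1 (adjusted p = 0.0149). It exceeded it by 0.33 for Col1a2 (adjusted p = 0.0247), 0.45 for Col7a1 (adjusted p = 0.0311), 0.65 for Col27a1 (adjusted p = 0.0458) and 0.41 for Col5a3 (adjusted p = 0.0496).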

How the results depend on the processing

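Over the 5 pairs, leaving out the fold threshold gave 13 collagen genes at 24 h (6 with it). At 7 d (9 called) 5 were called without the nAg pair (Col12a1, Col5a2, Col4a5 and Col23a1 lost) and 7 without the nZnO pair (Col4a5 and Col23a1 lost). The only single mice left out of this fit were 7 d nZnO replicates 4 and 7, 7 d control replicate 3 and 7 d scratched nAg replicate 1. They were not planned beforehand. This gave between 5 and 10 calls, 5 without 7 d scratched nAg replicate 1 and 10 without 7 d nZnO replicate 4. With pool over all 5 pairs at 7 d, Col16a1 (0.30), Col23a1 (-0.39) and Col27a1 (0.60, adjusted p = 0.0635 in edgeR) lost their calls and Col6a1, Col6a2 and Col6a3 gained one. Col23a1 lost its call without the nTiO2 or naive pair too. With no filter on low counts, Col4a5 at 7 d and Col4a4 at 24 h lost theirs. DESeq2 called 6 at 24 h and 9 at 7 d, against 12.8% and 4.99% of all genes. For skin scratched without PBS against naive skin (0 by edgeR), DESeq2 called 1 gene at 24 h and 3 at 7 d, against 3.76% and 1.73% of all genes. Limma-voom called 1 and 2 (3.86% and 2.30%), no filter on low counts 0 and 2 (1.27% and 0.658%) and RLE size factors 0 and 0 (2.97% and 1.26%). The pool as covariate gave 3 at 24 h (3.22%) and 0 at 7 d, where 0 of all 11423 genes were called. Leaving out single mice gave 0 to 2 calls at 24 h (above 0 without naive replicate 5 or scratched replicates 6 or 8) and 0 to 3 at 7 d (above 0 without naive replicates 3, 5 or 6 or scratched replicates 3, 5 or 7). Between scratched and intact skin under the nanomaterials (4 calls) DESeq2 gave 8 and the pool as covariate 7, where 5 of 6 comparisons could be fitted. For the difference of the scratching effect between 7 d and 24 h (0 over 4 groups), 16 groups gave 9, and 6 with pool. The cause of these shifts was not tested.

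Signs that turned belonged to genes that were not called. At 24 h, Col27a1 stood at 0.027 without the PBS pair, 0.014 without nZnO and 0.0046 without 24 h scratched nTiO2 replicate 1. Col5a2 stood at -0.001225 without PBS and -0.011 without nZnO, and Col5a3 at -0.028 without nZnO. Col7a1 stood at -0.002348 without nTiO2 and -0.065 without nZnO. Col8a1 stood at 0.0016 without nTiO2, 0.043 without nAg and 0.008975 without naive mice. Col6a3 stood at 0.011 without naive mice and 0.0010 without 24 h scratched nTiO2 replicate 1. At 7 d, Col8a2 stood at 0.014 without nZnO and 0.019 in the nZnO and nAg pairs with pool.

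Against PBS and between PBS and naive skin, 0 collagen genes were called under the alternatives run. The pool could not be fitted for the 7 d scratched against the 7 d control group, nor for most comparisons of 7 d with 24 h. TMM library sizes moved the class sums by -6.57% to 6.41%, less than the spread between mice. No paired analysis was possible because the mouse numbers only name mice.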
